A study of Mus musculus with 8 samples.

Results

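Transforming growth factor beta (TGF-beta) signalling was read from 9 mouse genes, taken by symbol from a deposited table of 55681 genes. They were the ligands Tgfb1, Tgfb2 and Tgfb3, the receptors Tgfbr1 and Tgfbr2, the signal transducer Smad3, the inhibitor Smad7, the matrix gene Tgfbi and the latency gene Ltbp1. All 9 had a row in the table, and all 9 passed the filter on low values, a mean of at least 1 FPKM over all libraries. RNA had been sequenced from whole small intestines of embryos at E15.5, on the C57BL6J background. The 4 libraries labelled Slmap-cKO had the genotype Slmapfl/fl; Derom-Cre with the treatment label Dermo-Cre, and the 4 control libraries had the genotype Slmapfl/fl. Both groups therefore carried the floxed Slmap alleles. Dermo-Cre is driven from Twist2 (also called Dermo1), which is active in mesenchymal cells, so deletion was directed to the mesenchyme while the RNA came from all layers of the gut. Slmap encodes a membrane-anchored scaffold that brings the STRIPAK phosphatase to the Hippo kinases. The comparison asks whether the level of each TGF-beta gene in the gut differs between embryos labelled with and without the Cre.

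TGF-beta ligands are secreted in a latent form, bound to latent TGF-beta binding proteins such as the product of Ltbp1, which hold them in the extracellular matrix. The released ligand joins the type II receptor (Tgfbr2) with the type I receptor (Tgfbr1), a kinase that phosphorylates SMAD2 and SMAD3, which then enter the nucleus with SMAD4 and bind DNA. Smad7 is induced by the pathway and blocks the type I receptor, while Tgfbi encodes an extracellular matrix protein named for its induction by TGF-beta. In the developing gut the pathway is known for its actions on mesenchyme, smooth muscle and matrix.

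The promoters of 4 genes are given here because 3 of them shared their lowest libraries, as described further on, and the fourth had the highest fold change of the 9. Tgfb2, Tgfbi and Ltbp1 were each lowest in the libraries labelled cKO 3 and cKO 4. Tgfb3 was lowest in these libraries too, but no promoter entry was used for it. Tgfbr1, in contrast, was higher in every library labelled Slmap-cKO than in every control. RefSeq promoter entries on GRCm38.p6 were used for 7 of the 9 genes, all but Tgfb3 and Smad7. Each holds 300 bases, from 250 before to 50 after a listed start, and the window at the gene's first listed start is shown. The 4 windows are chr1:186705940-186706239 (minus strand) for Tgfb2, chr13:56609336-56609635 (plus strand) for Tgfbi, chr17:75005279-75005578 (plus strand) for Ltbp1 and chr4:47352972-47353271 (plus strand) for Tgfbr1. Each is written 5′ to 3′ on the gene's strand, and capitals mark a SMAD box (CAGAC, or GTCTG on the other strand), a TATA box (TATAAA, searched on the gene's strand only) and a cyclic AMP response element (TGACGTCA).

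Tgfb2: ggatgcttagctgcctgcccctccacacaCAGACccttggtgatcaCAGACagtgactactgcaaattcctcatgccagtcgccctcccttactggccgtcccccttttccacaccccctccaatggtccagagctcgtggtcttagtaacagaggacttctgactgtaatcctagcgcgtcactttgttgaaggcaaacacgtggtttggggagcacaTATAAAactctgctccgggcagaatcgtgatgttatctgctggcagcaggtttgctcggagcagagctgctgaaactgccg

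Tgfbi: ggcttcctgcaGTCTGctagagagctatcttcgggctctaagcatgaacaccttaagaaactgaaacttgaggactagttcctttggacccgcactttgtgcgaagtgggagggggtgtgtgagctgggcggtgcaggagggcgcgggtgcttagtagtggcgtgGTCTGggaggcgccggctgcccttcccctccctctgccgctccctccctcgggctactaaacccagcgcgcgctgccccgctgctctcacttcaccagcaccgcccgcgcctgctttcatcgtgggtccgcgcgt

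Ltbp1: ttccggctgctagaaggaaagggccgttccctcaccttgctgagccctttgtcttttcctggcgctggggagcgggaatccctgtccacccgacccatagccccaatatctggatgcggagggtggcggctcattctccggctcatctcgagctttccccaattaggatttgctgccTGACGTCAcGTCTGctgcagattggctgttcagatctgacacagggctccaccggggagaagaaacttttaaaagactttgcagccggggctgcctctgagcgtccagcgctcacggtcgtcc

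Tgfbr1: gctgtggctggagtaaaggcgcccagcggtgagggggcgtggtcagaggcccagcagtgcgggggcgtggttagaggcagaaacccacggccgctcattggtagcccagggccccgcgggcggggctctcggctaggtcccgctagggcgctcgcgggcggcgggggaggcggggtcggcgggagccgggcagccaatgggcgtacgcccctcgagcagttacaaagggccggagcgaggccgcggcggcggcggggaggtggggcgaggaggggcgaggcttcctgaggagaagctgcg

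The Tgfb2 window held 2 SMAD boxes and a TATA box that starts at position -31 from the listed start. The Tgfbi window held 2 SMAD boxes, and the Ltbp1 window held 1 SMAD box and a cyclic AMP response element that starts at position -73. The Tgfbr1 window held none of these motifs. SMAD boxes are short and common: 49.6% of 32851 promoter windows of the same length held at least 1, while 8.32% held the TATA box and 1.79% the cyclic AMP response element. The palindrome GTCTAGAC, which joins both SMAD box orientations, was in 0.213% of windows and in none of these 4. The GC box (GGGCGG, or CCGCCC on the other strand), which 35.7% of windows held, was found 2 times each in the Tgfbi and Tgfbr1 windows. The windows also differed in base composition, with a GC content of 54.3% for Tgfb2, 58.7% for Ltbp1, 63.3% for Tgfbi and 74.7% for Tgfbr1. Outside these 4 windows, the first windows of Tgfb1 and Smad3 held 0 SMAD boxes and that of Tgfbr2 held 1. Windows at a second listed start held 1 SMAD box for Tgfbr1 and 2 for Ltbp1. A match is a string of letters and does not show that a factor binds there.

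Levels are in FPKM, fragments scaled to gene length and to a total per library, as the authors deposited them. Reads recovered from the FPKM steps summed to between 15663837 and 17806397 per library. The scaling total implied by these steps was 0.969, 1.01, 0.985 and 0.983 times that sum in cKO 1 to 4. In controls 1 to 4 it was 1.00, 1.00, 1.09 and 1.06 times the sum. It fell below the sum in cKO 1, 3 and 4, which a total of all mapped fragments would not do. Some libraries stood apart. On the first principal component, which held 36.3% of the variance, cKO 2 lay at -27.5 and controls 3 and 4 lay at 33.3 and 24.3, and genes with at least 1 read numbered 25832 and 25934 in controls 3 and 4, against 23883 to 24071 in the other 6 libraries. Slmap averaged 25.5 ± 1.40 FPKM in the libraries labelled Slmap-cKO and 24.1 ± 0.915 FPKM in controls (SD, n = 4 each; limma, log2 fold change 0.074, adjusted p = 0.570), so its gene total did not separate the groups. No source used here names the floxed exons, and a gene total can include exons outside the deleted part. Twist2, whose driver was used, was low in this tissue, at 0.224 ± 0.0770 FPKM in the libraries labelled Slmap-cKO and 0.393 ± 0.0765 FPKM in controls (SD, n = 4 each). Markers of epithelium and smooth muscle, the defining tissues of gut, were all present, with 8 of 8 and 7 of 7 genes above a mean of 1 FPKM. The difference between groups also ran with base composition: GC content and the log2 fold change had a Spearman correlation of -0.558 across 13992 genes, and genes do not count as replicates.

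Differences were tested with limma on log2(FPKM + 1) over 14220 genes, with p-values adjusted over all of them and a threshold of 0.05. Fold changes carry this added 1, which makes those of weakly expressed genes too small. None of the 9 TGF-beta genes passed, and over all genes 0.0141% passed (2 genes, both lower in the libraries labelled Slmap-cKO). With limma-voom on the recovered reads none of the 9 passed either. The 9 log2 fold changes ranged from -0.39 to 0.19 with a median of -0.20, against a median of -0.0016 over all genes tested. Below 0 were 7 of them: the 3 ligands, Ltbp1, Tgfbi, Smad7 and Tgfbr2. Above 0 were Tgfbr1 and Smad3. Tgfb3 was the single gene of the 9 lower at an unadjusted p below 0.05, where 9.87% of all genes tested were lower, and Tgfbr1 was the single one higher, where 12.6% of all genes tested were higher. This split of all genes, 1790 higher and 1403 lower, depended on how libraries were scaled, and after scaling by summed reads 1184 genes were higher and 2214 lower. The same pair were the ones whose groups did not overlap, against a background of 5.75% of genes with every library labelled Slmap-cKO below every control and 9.61% with every one above. At 1 of 9 in each direction, these shares lie near the background. The members' counts moved with the scaling too. With median-ratio scaling 2 of the 9 (Tgfb1 and Tgfb3) were lower and none higher at an unadjusted p below 0.05, where 11.9% of all genes were lower. With scaling by summed reads 4 of the 9 (Tgfb1, Tgfb3, Smad7 and Tgfbi) were lower and none higher, where 2214 of 14279 genes were lower.

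**Figure D1:**
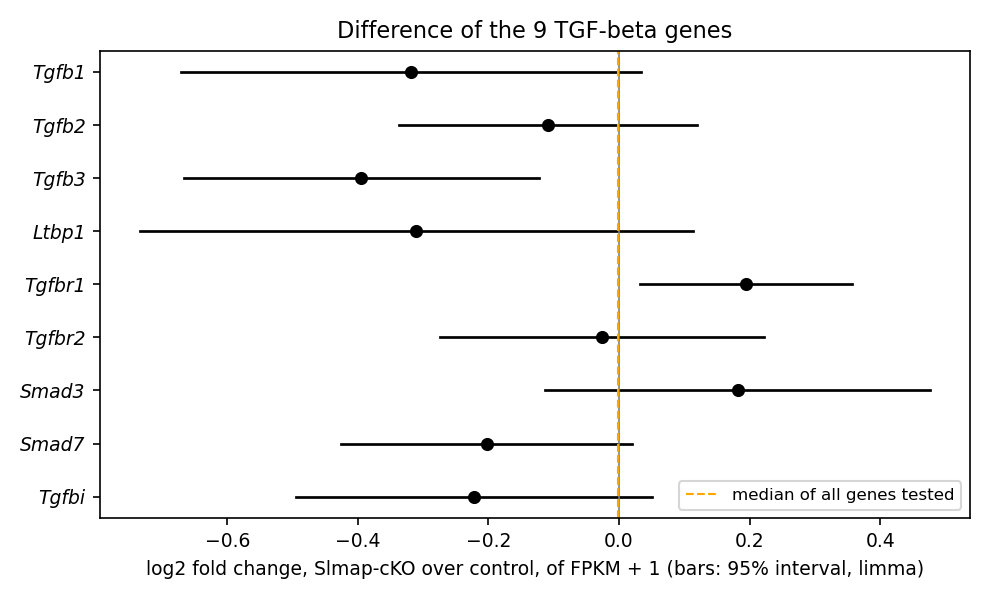
Log2 fold change of FPKM + 1 (horizontal axis), Slmap-cKO over control, for each of the 9 genes (vertical axis). Points are limma estimates, bars are 95% intervals and the dashed line is the median of all genes tested. The intervals of Tgfb3 (-0.67 to -0.12) and Tgfbr1 (0.03 to 0.36) lie on 1 side of 0, and the other 7 include 0.

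By level, averaged over all 8 libraries, Tgfbi stood highest at 45.5 FPKM, followed by Tgfbr1 at 19.9, Smad3 at 13.7 and Tgfbr2 at 12.9 FPKM. Below them came Tgfb3 at 6.86, Ltbp1 at 6.43, Smad7 at 5.64, Tgfb1 at 4.34 and Tgfb2 at 3.29 FPKM. Neighbours in this order were not always apart. Smad3 lay above Tgfbr2 in 5 of 8 libraries, Tgfb3 above Ltbp1 in 5 and Ltbp1 above Smad7 in 4, while every other neighbouring pair kept its order in 7 or 8 libraries. Among the ligands, Tgfb3 was thus the most abundant transcript and Tgfb2 the least, and transcripts of the receptors were more abundant than those of any ligand. The depth behind these levels ran from 258 reads, the lowest of Tgfb2 in 1 library (95% Poisson interval 227 to 291), to 3543 reads for Tgfbi. Such intervals cover counting error only.

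Tgfb1 encodes the ligand TGF-beta 1 (ENSMUSG00000002603, chr7:25386427-25404502 on GRCm39, plus strand). It had 3.70, 4.48, 3.72 and 3.02 FPKM in the libraries labelled cKO 1 to 4, against 5.73, 6.24, 3.94 and 3.91 FPKM in controls 1 to 4. Controls 1 and 2 were high, and of the libraries labelled Slmap-cKO 3 lay below every control while cKO 2 lay above controls 3 and 4, so the groups overlapped. Tgfb1 averaged 3.73 ± 0.598 FPKM in the libraries labelled Slmap-cKO and 4.96 ± 1.21 FPKM in controls (SD, n = 4 each). Its log2 fold change was -0.32 with an SE of 0.16, a fold of 0.802 with a 95% interval of 0.628 to 1.02 (limma, adjusted p = 0.264). Without controls 3 and 4 the log2 fold change was -0.57 (limma, adjusted p = 0.101).

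Tgfb2 encodes TGF-beta 2 (ENSMUSG00000039239, chr1:186354989-186438186 on GRCm39, minus strand). Its level was 3.25, 3.85, 2.64 and 2.82 FPKM in the libraries labelled cKO 1 to 4, against 3.37, 3.59, 3.41 and 3.37 FPKM in controls 1 to 4. The controls lay within a narrow range, and the libraries labelled Slmap-cKO lay on both sides of it, with cKO 2 above every control and the other 3 below. Tgfb2 averaged 3.14 ± 0.536 FPKM in the libraries labelled Slmap-cKO and 3.44 ± 0.103 FPKM in controls (SD, n = 4 each), a log2 fold change of -0.11 with an SE of 0.10 and a fold of 0.927 with a 95% interval of 0.792 to 1.09 (limma, adjusted p = 0.561). Without cKO 2 it was -0.19 (limma, adjusted p = 0.180), and with a correction of each library for GC content and gene length it was -0.20 (limma, adjusted p = 0.464). Without cKO 3 it was -0.050 (limma, adjusted p = 0.837), the value nearest 0 among 20 alternatives.

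Tgfb3, which encodes TGF-beta 3 (ENSMUSG00000021253, chr12:86103519-86125815 on GRCm39, minus strand), had the lowest of the 9 fold changes. The libraries labelled cKO 1 to 4 had 5.87, 7.61, 4.94 and 4.93 FPKM, against 7.99, 7.75, 7.95 and 7.84 FPKM in controls 1 to 4. Every library labelled Slmap-cKO lay below every control, but cKO 2 was close to the lowest control. The means were 5.84 ± 1.26 FPKM in the libraries labelled Slmap-cKO and 7.88 ± 0.112 FPKM in controls (SD, n = 4 each). Fitted by limma, its log2 fold change was -0.39 with an SE of 0.12, a fold of 0.761 with a 95% interval of 0.630 to 0.918, and it did not pass after adjustment (limma, adjusted p = 0.111).

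The call for Tgfb3 turned on cKO 2. Without this library its log2 fold change was -0.51 (limma, adjusted p = 0.0177), but 9.65% of 14274 genes then passed. At an unadjusted p below 0.05, 4 of the 9 genes (Tgfb1, Tgfb3, Ltbp1 and Tgfbi) were then lower, where 12.8% of all genes were. With array quality weights, which gave cKO 2 the lowest weight, it was -0.50 (limma, adjusted p = 0.0170), in a fit where 7.24% of all genes passed as lower. Over 20 alternatives the log2 fold change of Tgfb3 stayed between -0.51 and -0.33, with adjusted p between 0.0170 and 0.379, the highest after the GC correction. Tgfb3 overlaps Ttll5 on the opposite strand, and no source used here says whether reads were counted by strand. Ttll5 itself differed little, at 1.73 ± 0.121 FPKM in the libraries labelled Slmap-cKO and 1.61 ± 0.197 FPKM in controls (SD, n = 4 each; log2 fold change 0.067; limma, adjusted p = 0.723).

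The summed level of the 3 ligands, in FPKM, was 12.8, 15.9, 11.3 and 10.8 in the libraries labelled cKO 1 to 4, against 17.1, 17.6, 15.3 and 15.1 in controls 1 to 4. The library cKO 2 again lay within the range of the controls, and the other 3 lay below it. The make-up of the sum moved less than its size. Tgfb3 made up 45.8 ± 1.64% of it in the libraries labelled Slmap-cKO and 48.7 ± 3.90% in controls, and Tgfb1 made up 29.5 ± 2.30% in the libraries labelled Slmap-cKO and 30.2 ± 5.09% in controls (SD, n = 4 each). Tgfb2 made up 24.7 ± 1.24% in the libraries labelled Slmap-cKO, between 23.4 and 26.2%, and 21.2 ± 1.31% in controls, between 19.7 and 22.3%, so its share did not overlap between groups. These shares were described and not tested.

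**Figure D2:**
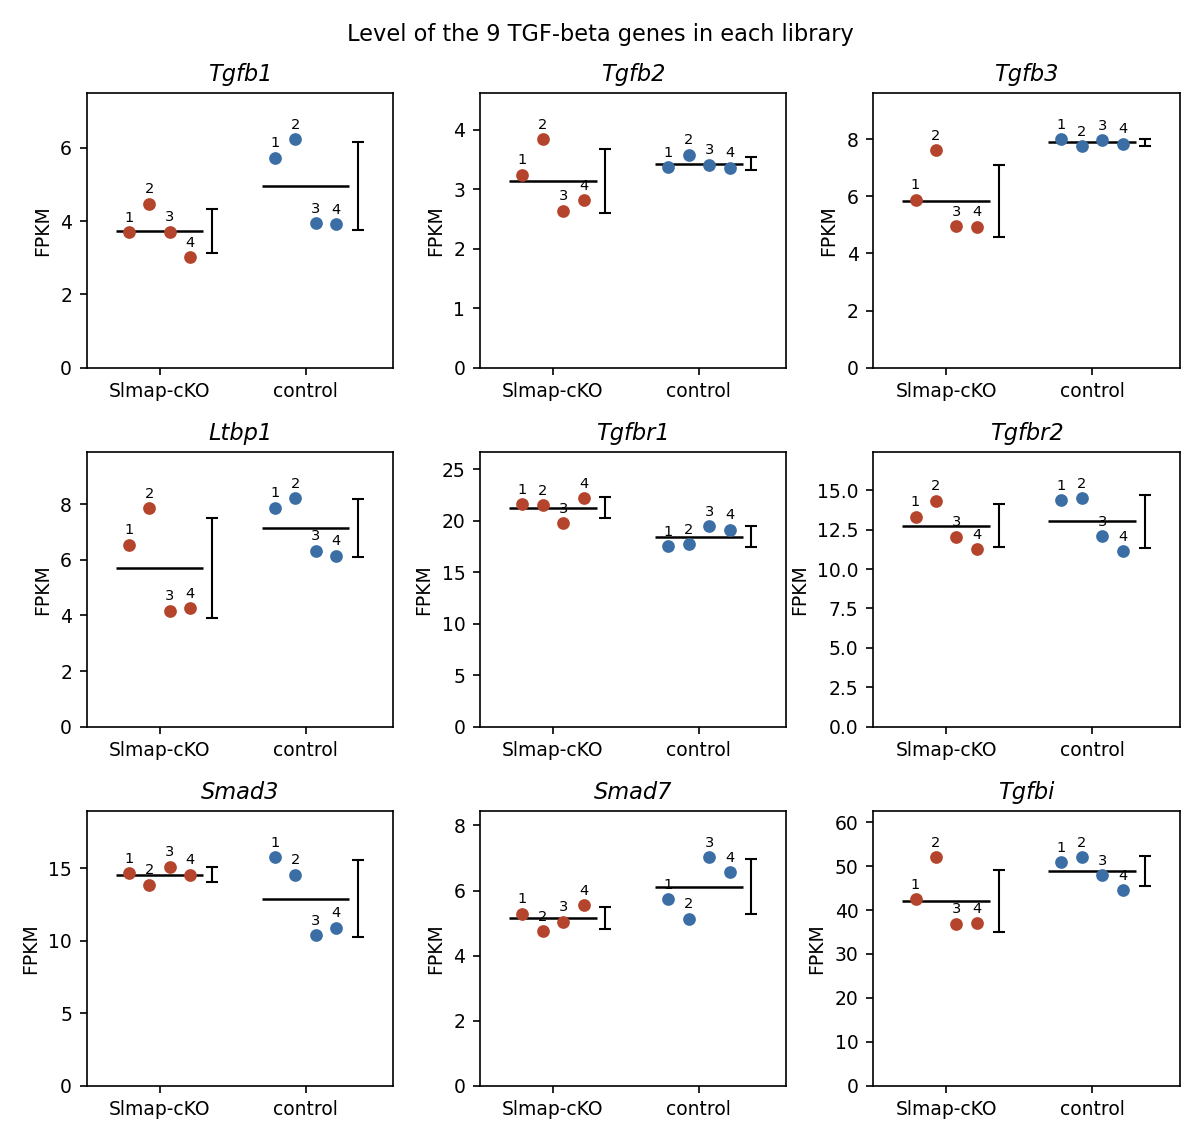
Level in FPKM (vertical axes, each from 0) of the 9 genes in each library. Points are libraries numbered as in the labels, Slmap-cKO left and control right, and lines and bars are the mean and SD of 4 libraries. Tgfb3 and Tgfbr1 are the genes whose groups do not overlap, with 4.93 to 7.61 FPKM in Slmap-cKO against 7.75 to 7.99 FPKM in control for Tgfb3, and 19.8 to 22.2 FPKM in Slmap-cKO against 17.5 to 19.5 FPKM in control for Tgfbr1.

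Ltbp1, whose protein binds latent TGF-beta and anchors it in the matrix, lies at chr17:75312563-75699507 on GRCm39 (ENSMUSG00000001870, plus strand). It had 6.54, 7.85, 4.17 and 4.25 FPKM in the libraries labelled cKO 1 to 4, against 7.88, 8.22, 6.32 and 6.15 FPKM in controls 1 to 4. The libraries cKO 3 and 4 were the lowest of all 8, and in both groups the libraries numbered 1 and 2 were higher than those numbered 3 and 4. Ltbp1 averaged 5.71 ± 1.81 FPKM in the libraries labelled Slmap-cKO and 7.15 ± 1.06 FPKM in controls (SD, n = 4 each). On the log2 scale the difference was -0.31 with an SE of 0.19, a fold of 0.806 with a 95% interval of 0.601 to 1.08 (limma, adjusted p = 0.357). It was -0.20 without cKO 3 and -0.47 without controls 3 and 4, and it did not pass in either fit. The ratio of Ltbp1 to the summed ligands was 0.442 ± 0.0700 in the libraries labelled Slmap-cKO and 0.437 ± 0.0316 in controls (SD, n = 4 each), a description with no test.

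Tgfbi (ENSMUSG00000035493, chr13:56757336-56787375 on GRCm39, plus strand) had 42.5, 52.0, 36.9 and 37.0 FPKM in the libraries labelled cKO 1 to 4, against 51.0, 52.0, 48.0 and 44.5 FPKM in controls 1 to 4. The libraries cKO 1, 3 and 4 lay below every control, and cKO 2 lay just above the highest control. Tgfbi averaged 42.1 ± 7.14 FPKM in the libraries labelled Slmap-cKO and 48.9 ± 3.37 FPKM in controls (SD, n = 4 each), a log2 fold change of -0.22 with an SE of 0.12 and a fold of 0.857 with a 95% interval of 0.710 to 1.04 (limma, adjusted p = 0.308). With array quality weights, where 7.24% of all genes passed as lower, 3 of the 9 genes did: Tgfb3, Tgfbi (limma log2 fold change -0.34, adjusted p = 0.0425) and Tgfb1 (limma log2 fold change -0.46, adjusted p = 0.0478).

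Summed markers of fibroblasts and smooth muscle, cell types known to make TGF-beta ligands and matrix, ran in an order of libraries like that of Ltbp1. These sums are not independent of the pathway. Col1a1, Col1a2 and Col3a1 of the fibroblast sum, and Acta2 and Tagln of the smooth muscle sum, also count among the other response genes below. The summed level of 9 fibroblast markers, in FPKM, was 849.5, 974.5, 570.5 and 599.2 in the libraries labelled cKO 1 to 4, against 1053.3, 1037.9, 669.3 and 628.6 in controls 1 to 4. The sum of 7 smooth muscle markers was 1177.5, 1479.4, 1086.4 and 1088.3 in the libraries labelled cKO 1 to 4, against 1578.3, 1733.1, 1210.7 and 1247.6 in controls 1 to 4. For both sums, as for Ltbp1, libraries numbered 1 and 2 were higher than those numbered 3 and 4 in each group, and the groups overlapped. By log2 fold change, 6 of 8 tested fibroblast markers lay below 0 and 2 above (median -0.11). Of the smooth muscle markers 6 of 7 lay below 0 (median -0.23). At an unadjusted p below 0.05, 2 smooth muscle markers and 0 fibroblast markers were lower, where 9.87% of all genes tested were lower. Without overlap were 1 fibroblast marker, higher (9.61% of all genes), and 1 smooth muscle marker, lower (5.75%). The sum of 6 mesothelial markers, a thin outer layer of the gut, did not overlap between groups, with 29.96 to 35.09 FPKM in the libraries labelled Slmap-cKO and 43.41 to 72.78 FPKM in controls. The sum of 8 epithelial markers was 1285.9, 1003.4, 1350.8 and 1359.7 FPKM in the libraries labelled cKO 1 to 4, against 1243.3, 1198.3, 921.9 and 1055.4 FPKM in controls 1 to 4. All 8 had a log2 fold change above 0. Of them, 2 were higher at an unadjusted p below 0.05, where 12.6% of all genes tested were higher. With scaling by summed reads 6 lay above 0 and 2 below, and without controls 3 and 4 it was 4 and 4 (median -0.014). After the correction for GC content and gene length all 8 lay above 0 (median 0.31). At that p 4 were then higher, where 5.60% of all genes were. Without cKO 2 all 8 also lay above 0 (median 0.31), with 4 higher, where 2274 of 14274 genes were. Among libraries labelled Slmap-cKO, cKO 2 had the lowest epithelial sum and the highest levels of the 3 ligands, Ltbp1 and Tgfbi. The controls differed in this: controls 3 and 4 had the lowest epithelial sums and also lower Tgfb1, Ltbp1 and Tgfbi than controls 1 and 2. The sum of 8 macrophage markers was 45.7 to 60.7 FPKM in the libraries labelled Slmap-cKO and 57.9 to 74.1 FPKM in controls. At an unadjusted p below 0.05, 4 of the 8 were lower, where 9.87% of all genes tested were lower. After the correction for GC content and gene length 1 of the 8 was lower, where 5.90% of all genes were. No marker of these lists was at 0 in every library. The part of cell composition in the levels of Tgfb1, Tgfb2, Tgfb3, Ltbp1 and Tgfbi was not tested, and in bulk tissue fewer cells of a type and less RNA per cell cannot be told apart.

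**Figure D3:**
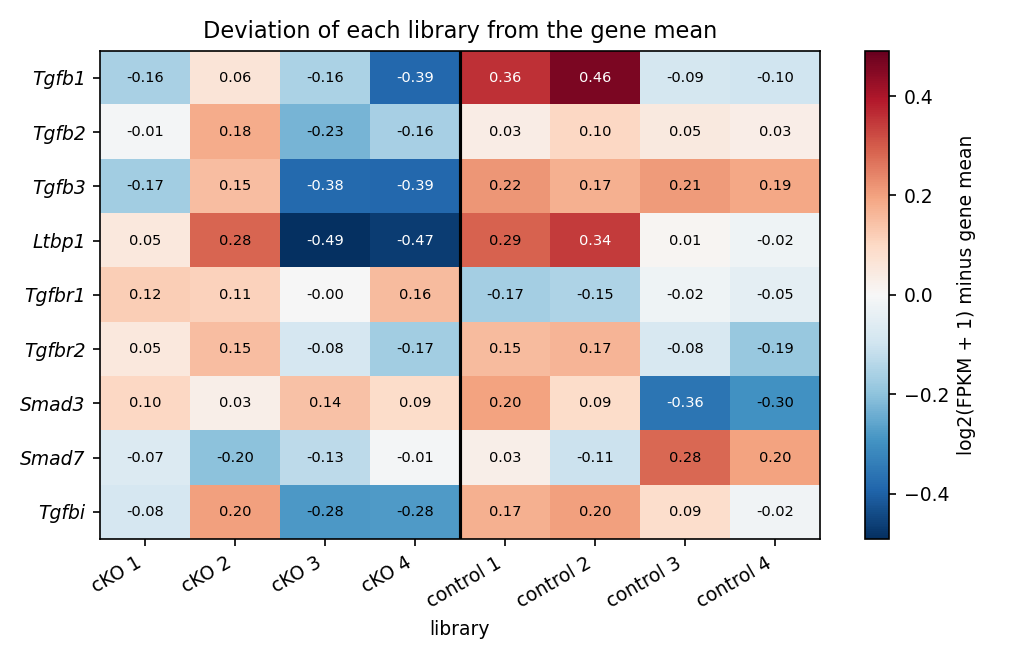
Difference of each library from the gene's mean over 8 libraries, on the log2(FPKM + 1) scale (colour and printed value), for the 9 genes (rows) in the Slmap-cKO libraries (left) and the controls (right). Ltbp1 is lowest in cKO 3 and 4 at -0.49 and -0.47, Tgfb1 is highest in controls 1 and 2 at 0.36 and 0.46, and Smad3 and Smad7 deviate in opposite directions in controls 3 and 4.

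Tgfbr1 encodes the type I receptor kinase (ENSMUSG00000007613, chr4:47353222-47414931 on GRCm39, plus strand) and was the gene with the highest fold change of the 9. Its level was 21.6, 21.5, 19.8 and 22.2 FPKM in the libraries labelled cKO 1 to 4, against 17.5, 17.7, 19.5 and 19.1 FPKM in controls 1 to 4. Every library labelled Slmap-cKO lay above every control, with cKO 3 close to control 3. The means were 21.3 ± 1.04 FPKM in the libraries labelled Slmap-cKO and 18.5 ± 0.984 FPKM in controls (SD, n = 4 each). This gave a log2 fold change of 0.19 with an SE of 0.07, a fold of 1.14 with a 95% interval of 1.02 to 1.28 (limma, adjusted p = 0.160). Tgfbr1 has the lowest GC content of the 9 genes, 41.0%, and after a correction of each library for GC content and gene length its log2 fold change was 0.010 (limma, adjusted p = 0.962). In that fit 5.60% of all genes were higher and 5.90% lower at an unadjusted p below 0.05. Of the 9 TGF-beta genes, 1 (Tgfb3) was among those lower, at -0.34 (limma, adjusted p = 0.379), and Tgfbr1 was no longer among those higher.

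Tgfbr2, the type II receptor that binds ligand first (ENSMUSG00000032440, chr9:115913361-116004428 on GRCm39, minus strand), had 13.3, 14.3, 12.0 and 11.3 FPKM in the libraries labelled cKO 1 to 4, against 14.4, 14.5, 12.1 and 11.1 FPKM in controls 1 to 4. The groups covered nearly the same range, and in each group the libraries numbered 1 and 2 were higher than those numbered 3 and 4. Tgfbr2 averaged 12.7 ± 1.36 FPKM in the libraries labelled Slmap-cKO and 13.0 ± 1.68 FPKM in controls (SD, n = 4 each). The difference on the log2 scale was -0.026 with an SE of 0.11, and the 95% interval of the fold, 0.827 to 1.17 around 0.982, leaves room for a difference of either sign (limma, adjusted p = 0.915). Without controls 3 and 4 it was -0.17, and 3 fits that left out another library gave a value just above 0. The ratio of Tgfbr1 to Tgfbr2 was 1.68 ± 0.201 in the libraries labelled Slmap-cKO and 1.44 ± 0.260 in controls (SD, n = 4 each), and the groups overlapped.

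Smad3 encodes a receptor-activated SMAD (ENSMUSG00000032402, chr9:63554049-63665276 on GRCm39, minus strand). It had 14.7, 13.9, 15.1 and 14.6 FPKM in the libraries labelled cKO 1 to 4, against 15.8, 14.6, 10.4 and 10.9 FPKM in controls 1 to 4. The libraries labelled Slmap-cKO were close together, while controls 3 and 4 were the lowest of all 8. Smad3 averaged 14.6 ± 0.511 FPKM in the libraries labelled Slmap-cKO and 12.9 ± 2.67 FPKM in controls (SD, n = 4 each), a log2 fold change of 0.18 with an SE of 0.13 and a fold of 1.13 with a 95% interval of 0.925 to 1.39 (limma, adjusted p = 0.440). Its sign rested on controls 3 and 4: without them the log2 fold change was -0.055 (limma, adjusted p = 0.650).

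Smad7 encodes the inhibitory SMAD of the pathway (ENSMUSG00000025880, chr18:75500600-75529006 on GRCm39, plus strand). Its level was 5.29, 4.74, 5.04 and 5.56 FPKM in the libraries labelled cKO 1 to 4, against 5.73, 5.13, 7.02 and 6.57 FPKM in controls 1 to 4. Here controls 3 and 4 were the highest of all 8, and control 2 lay within the range of the libraries labelled Slmap-cKO. Smad7 averaged 5.16 ± 0.348 FPKM in the libraries labelled Slmap-cKO and 6.11 ± 0.845 FPKM in controls (SD, n = 4 each). As a log2 fold change this was -0.20 with an SE of 0.10, a fold of 0.869 with a 95% interval of 0.745 to 1.01 (limma, adjusted p = 0.263). It was -0.063 without controls 3 and 4, and -0.061 after the correction for GC content and gene length. The ratio of Smad3 to Smad7 was 2.78, 2.93, 3.00 and 2.62 in the libraries labelled cKO 1 to 4, against 2.75, 2.84, 1.48 and 1.66 in controls 1 to 4, so that controls 3 and 4 were again the libraries apart.

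**Figure D4:**
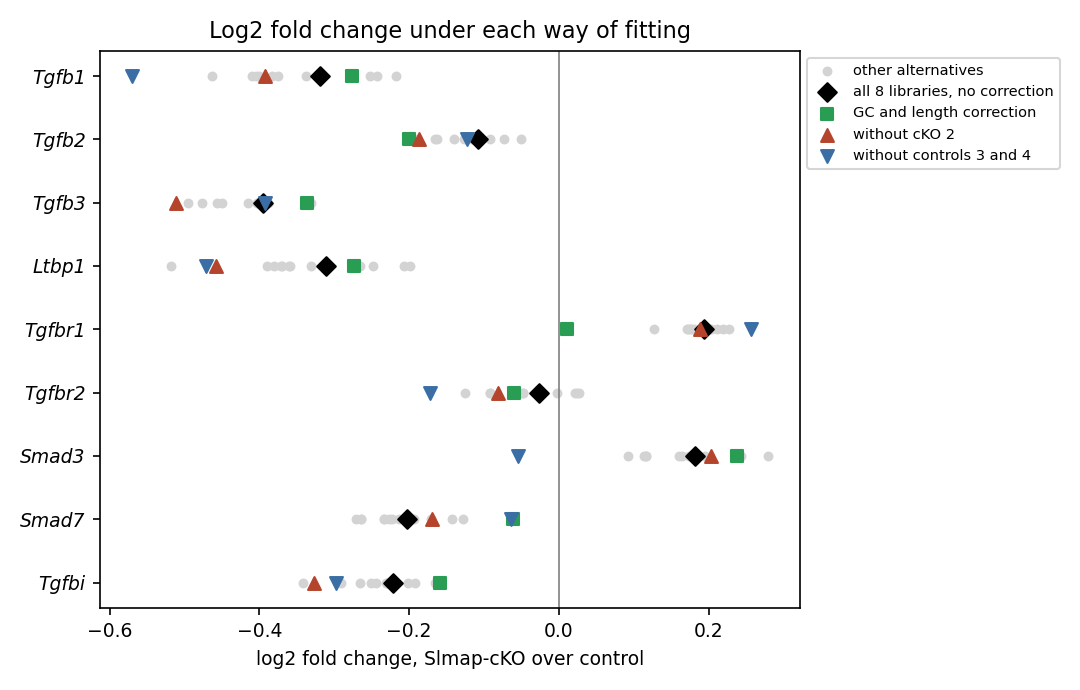
Log2 fold change, Slmap-cKO over control (horizontal axis), of each of the 9 genes (vertical axis) in the fit with all 8 libraries (black) and in 20 alternatives. Coloured symbols mark the GC and length correction, the fit without cKO 2 and the fit without controls 3 and 4. The 3 ligands, Ltbp1, Tgfbi and Smad7 stay below 0 throughout, Tgfbr1 reaches 0.010 after the GC correction, and Smad3 is at -0.055 without controls 3 and 4.

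A further 101 genes of the pathway, sorted by role, were counted in the same fit, and 94 of them passed the filter. None passed the adjusted threshold with limma or limma-voom, and their median log2 fold change was -0.049. At an unadjusted p below 0.05, 16 were higher and 15 lower, where 12.6% of all genes were higher and 9.87% lower. Of the 94 genes, 10 had every library labelled Slmap-cKO above every control and 8 had every one below, against 9.61% and 5.75% of all genes. Over all 14220 genes tested, 7073 lay above 0 and 7147 below. Among genes of latency, storage and activation, 16 of 20 lay below 0 (median -0.13), and at an unadjusted p below 0.05 the list had 4 lower and 1 higher. Among SMAD partners and regulators 18 of 24 lay above 0 (median 0.11), and the list had 7 higher and none lower at that p.

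Ltbp3, a second latent TGF-beta binding protein, had 6.25, 8.35, 5.54 and 5.98 FPKM in the libraries labelled cKO 1 to 4, against 10.2, 10.2, 10.3 and 8.84 FPKM in controls 1 to 4. The groups did not overlap, and the log2 fold change was -0.54 with an SE of 0.12 (limma, adjusted p = 0.0758). Without cKO 2 it was -0.65 and passed (limma, adjusted p = 0.0174), in a fit where 9.65% of all genes passed. After the correction for GC content and gene length it was -0.38 (limma, adjusted p = 0.341). The latency list then had 3 genes lower and 0 higher at an unadjusted p below 0.05, where 5.90% of all genes were lower. Fmod, which encodes the collagen-binding proteoglycan fibromodulin, had 2.62, 3.23, 2.26 and 2.19 FPKM in the libraries labelled cKO 1 to 4, against 3.24, 3.86, 6.69 and 4.15 FPKM in controls 1 to 4. Its groups touched but did not overlap (log2 fold change -0.59, SE 0.18; limma, adjusted p = 0.115), and without controls 3 and 4 the log2 fold change was -0.35. Ltbp2 and Itgb8 of the same list were under the filter.

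Smad2, the other receptor-activated SMAD of the TGF-beta branch, had 10.63, 10.31, 11.02 and 10.13 FPKM in the libraries labelled cKO 1 to 4, against 9.13, 8.98, 8.27 and 8.16 FPKM in controls 1 to 4. Usp15, a deubiquitinase that acts on receptor-activated SMADs and the type I receptor, averaged 7.68 ± 0.469 FPKM in the libraries labelled Slmap-cKO and 6.13 ± 0.199 FPKM in controls (SD, n = 4 each). Neither gene overlapped between groups, and the log2 fold changes were 0.26 for Smad2 (limma, adjusted p = 0.0866) and 0.28 for Usp15 (limma, adjusted p = 0.0800). As for Tgfbr1, both were smaller after the correction for GC content, at 0.12 and 0.11, and the list as a whole then had 2 genes higher and 1 lower at an unadjusted p below 0.05, with a median of 0.035, where 5.60% of all genes were higher and 5.90% lower.

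In the SMAD-independent arm, 6 of 10 genes were higher and 3 lower at an unadjusted p below 0.05, with a median of 0.20, where 12.6% of all genes were higher and 9.87% lower. After the correction for GC content 2 were higher and 1 lower, with a median of 0.081, where 5.60% of all genes were higher and 5.90% lower. Rock1, a kinase downstream of RhoA, averaged 7.32 ± 0.594 FPKM in the libraries labelled Slmap-cKO and 5.60 ± 0.404 FPKM in controls (log2 fold change 0.33; limma, adjusted p = 0.0800), and its log2 fold change was 0.14 after that correction. Shc1, an adaptor that couples receptors to Ras signalling, averaged 19.4 ± 0.921 FPKM in the libraries labelled Slmap-cKO and 24.0 ± 1.18 FPKM in controls (log2 fold change -0.29; limma, adjusted p = 0.0800; SD, n = 4 each for both genes). Neither overlapped between groups. Without cKO 2, in the fit where 9.65% of all genes passed, Usp15, Rock1 and Shc1 passed, with log2 fold changes of 0.31, 0.36 and -0.32. By list, that fit called 5 of 10 SMAD-independent genes, 3 of 24 SMAD partners and regulators, 1 of 20 latency genes and 2 of 26 other response genes.

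Of 28 other response genes, 26 were tested, 17 of them below 0 (median -0.072), with 5 lower and 1 higher at an unadjusted p below 0.05, against 9.87% lower and 12.6% higher over all genes. Pmepa1, a feedback inhibitor induced by TGF-beta, had 8.77, 10.2, 8.35 and 8.96 FPKM in the libraries labelled cKO 1 to 4, against 11.1, 11.4, 11.1 and 10.4 FPKM in controls 1 to 4. Its groups did not overlap (log2 fold change -0.25, SE 0.08; limma, adjusted p = 0.110), and without cKO 2 it passed at -0.31 (limma, adjusted p = 0.0307), while after the GC correction it was -0.17 (limma, adjusted p = 0.419). Tnc, which encodes the matrix protein tenascin C, averaged 2.03 ± 0.450 FPKM in the libraries labelled Slmap-cKO and 3.14 ± 0.621 FPKM in controls (SD, n = 4 each; limma log2 fold change -0.45, adjusted p = 0.124).

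Of the list of co-receptors and decoys, which also held the type I receptor Acvrl1, 5 of 6 genes were tested and 4 lay below 0 (median -0.087). Acvrl1, used in endothelium, had 12.1, 11.4, 11.5 and 11.3 FPKM in the libraries labelled cKO 1 to 4, against 15.2, 15.4, 12.9 and 13.6 FPKM in controls 1 to 4. Its groups did not overlap, as for 5.75% of all genes in that direction (log2 fold change -0.28, SE 0.08; limma, adjusted p = 0.0937). After the GC correction Acvrl1 was at -0.14 (limma, adjusted p = 0.419). Eng, the endothelial co-receptor endoglin, overlapped between groups (log2 fold change -0.13; limma, adjusted p = 0.577). Eng was at 0.019 after the GC correction and at -0.36 without controls 3 and 4. The summed level of 8 endothelial markers ran from 92.9 to 110.3 FPKM in the libraries labelled Slmap-cKO and from 72.8 to 127.4 FPKM in controls.

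**Figure D5:**
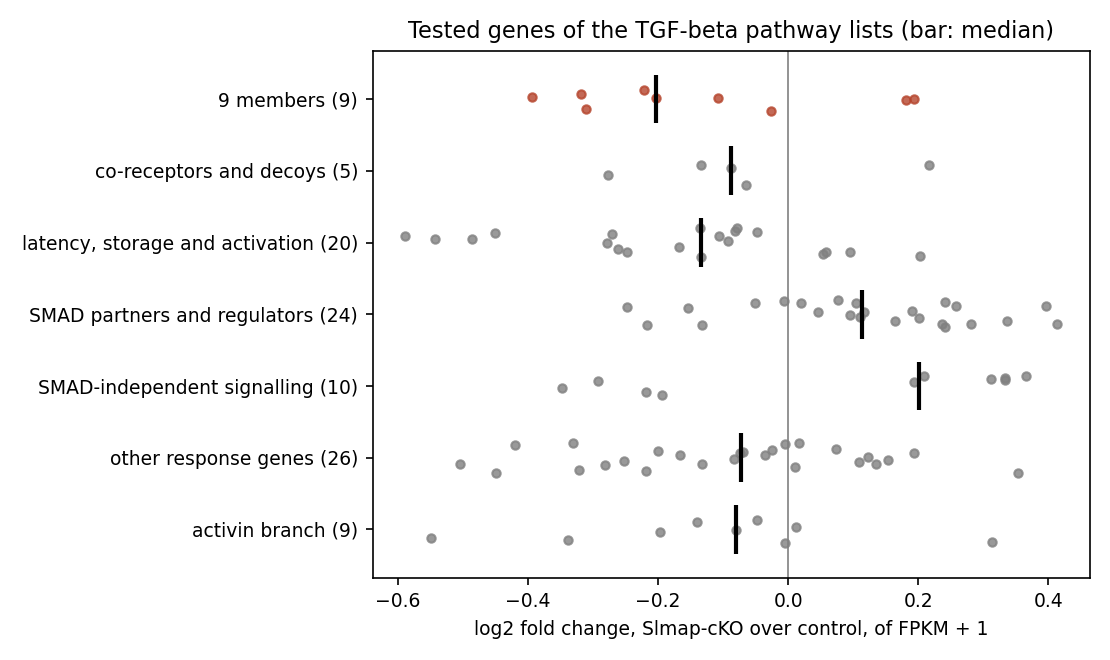
Log2 fold change of FPKM + 1, Slmap-cKO over control (horizontal axis), of each tested gene of 6 pathway lists and of the 9 genes (vertical axis, number tested in brackets). Points are genes and bars are medians, which run from -0.20 for the 9 genes to 0.20 for SMAD-independent signalling.

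The genes most like each of the 9 over the 8 libraries were sought by Pearson correlation of log2(FPKM + 1) among protein-coding genes, as a description. Tgfb3 was closest to Nlgn2 (r = 0.998) and Rpl41 (r = 0.997), and Tgfbi to Mfap2 (r = 0.998), a gene of elastic microfibrils, and Setd7 (r = 0.9896). Tgfb2 was closest to Igfbp5 (r = 0.987) and Itga8 (r = 0.977), Tgfb1 to Gipc1 (r = 0.991) and Pltp (r = 0.985), and Ltbp1 to Gpr20 (r = 0.989) and Mrm2 (r = 0.987). Tgfbr1 was closest to Cwf19l2 (r = 0.994) and Klhl9 (r = 0.991), Tgfbr2 to Ankrd50 (r = 0.989) and Kcna5 (r = 0.987), Smad3 to Gm4737 (r = 0.995) and Spata13 (r = 0.992), and Smad7 to Capn15 (r = 0.985) and Uba7 (r = 0.980). An r over 0.9 was reached by between 63 genes (for Tgfbr1) and 494 genes (for Smad3) of 12269 compared. These r values rest on the same 8 libraries, including the split of controls 3 and 4 from the others.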

How the data were processed

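RNA was measured in 8 whole small intestines, in groups taken from the titles. The authors deposited 1 table of FPKM values, and the tools listed in the submitters' processing notes, with no roles, are HISAT2, featureCounts, fastp, CASAVA and DESeq2 1.20.0, with the build GRCm39. Strand use and tool settings are not given there. The 9 genes, the further lists and the rule for named genes (in each list without a call, the 2 genes of smallest unadjusted p) were chosen with earlier results of these data known.

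Reads per gene were recovered from the FPKM steps (100% whole within 0.01). limma 3.58.1 (R 4.3.3, prior variance with an intensity trend, 2-sided) was run on log2(FPKM + 1) for the 14220 genes that averaged 1 FPKM or more, with Benjamini-Hochberg adjustment. The fit was tested on simulated data first. The simulated reads had the same dispersion for every gene, no difference linked to GC content and no library standing apart. That test therefore does not cover these features of the data. The labels name no litter or batch, so the fit treats the samples as independent and sets differences against the spread between them. Embryos that share a litter, if any, are not accounted for in the p-values. GC content was that of each gene's longest GENCODE M21 transcript, matched by gene ID (98.4% of tested genes), and per-library smooths used mgcv 1.9.3. Table coordinates are on GRCm39 and promoter coordinates on GRCm38.p6, and they were not converted. Alternatives were the pseudocount, filter, scaling, trend, weights, a block, a term for title numbers, the GC correction, limma-voom, biotype and libraries left out. Sequence of the genes' proteins was not analysed here.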

Additional observations from a re-analysis of the deposited data

How the results depend on the processing

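With all 8 libraries limma called 2 genes of 14220 and none of the 9 TGF-beta genes. The number of genes called was 0 with a pseudocount of 0.1 (1781 higher and 1399 lower at an unadjusted p below 0.05), 0 without the filter (1994 and 1981) and 0 with limma-voom (1639 and 1666). It was 1 among protein-coding genes alone, 27 with scaling by summed reads (5 higher, 22 lower), 31 with median-ratio scaling (12 higher, 19 lower), 1099 once title numbers 1 and 2 were set against 3 and 4 as a term, and 2209 with array quality weights. Leaving out 1 library gave 0 to 1378 genes, the highest without cKO 2. Of the 9 genes, 3 were called with weights (Tgfb1, Tgfb3 and Tgfbi), and 0 to 1 with a library left out (Tgfb3, without cKO 2). Their median stayed between -0.26 and -0.14. Tgfbr2 ran from -0.093 to 0.027 with a library left out, and was above 0 without cKO 4, control 1 or control 2. Smad3 was at -0.055 without controls 3 and 4. The cause of these changes was not tested.

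Equal replicate numbers were not taken as pairs, since deviations of equal numbers correlated at 0.07, 0.33, 0.15 and 0.21 and no label names a shared litter. With the replicate number as a block, 0 genes were called (1797 higher and 1673 lower at an unadjusted p below 0.05), and none of the 9. By best match, cKO 1 and cKO 2 were both nearest to control 2, cKO 3 to control 4 and cKO 4 to control 3. Each best match thus lay within numbers 1 and 2 or within numbers 3 and 4.

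Depth limits the ligands most: the lowest count of Tgfb2, 258 reads, has a counting error of 6.23%.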

Other observations

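The activin branch, which shares SMAD2 and SMAD3 with TGF-beta, had 9 of 11 genes tested, 7 of them below 0 (median log2 fold change -0.080), and limma called none. At an unadjusted p below 0.05, 1 was higher and 2 were lower, against 12.6% higher and 9.87% lower over all genes, and after the GC correction 0 were higher and 0 lower. Acvr2a, an activin type II receptor, had 13.57, 10.70, 13.99 and 15.17 FPKM in the libraries labelled cKO 1 to 4, against 9.35, 10.5, 11.2 and 10.9 FPKM in controls 1 to 4, and cKO 2 was the library within the control range (log2 fold change 0.31; limma, adjusted p = 0.149). Without cKO 2 it passed at 0.41 (limma, adjusted p = 0.0283), and after the GC correction it was 0.12. Inha, which encodes the inhibin alpha subunit, averaged 5.66 ± 1.03 FPKM in the libraries labelled Slmap-cKO and 9.07 ± 3.31 FPKM in controls (SD, n = 4 each), with controls 3 and 4 the highest (log2 fold change -0.55; limma, adjusted p = 0.207). Without those 2 controls it was -0.14, and after the GC correction it was -0.32. Inhbb, the inhibin beta B subunit, was under the filter at 0.0796 ± 0.0129 FPKM in the libraries labelled Slmap-cKO and 0.256 ± 0.0521 FPKM in controls.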
